A study of Mus musculus with 2 samples.

Results

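The genes of de novo fatty acid synthesis and elongation were followed here in nuclei of interscapular brown adipose tissue (BAT). They are 10 of the 32285 genes in the deposited count tables, taken by symbol as the enzymes that carry carbon from citrate to long fatty acids: Acly, Me1, Acaca, Acacb, Fasn, Scd1, Scd2, Elovl3, Elovl5 and Elovl6. Single-nucleus RNA-seq was performed on 2 libraries of BAT, 1 from WT and 1 from KO mice, to ask how the loss of the splicing factor SRSF1 alters the cells of this tissue. Both came from 8-week-old male mice, and both carried the floxed Srsf1 alleles (Srsf1 flox/flox), the WT mice being littermates without Cre. In the KO mice Cre was driven by the Adipoq promoter, which acts in mature adipocytes, brown and white, so nuclei of other cell types in the KO library are not meant to lack Srsf1. The number of mice pooled in a library is not given in the sources used here, and with 1 library per genotype nothing below could be tested against a spread between mice. Any difference between WT and KO below is also a difference between 2 libraries, and the 95% intervals cover counting error only.

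De novo lipogenesis turns surplus glucose carbon into fat: citrate leaves the mitochondrion, is split to acetyl-CoA, is carboxylated to malonyl-CoA and is built into palmitate, which is then desaturated or elongated. The pathway is under insulin control through the transcription factors SREBP1c and ChREBP. Brown adipocytes are unusual in running this synthesis alongside fatty acid oxidation, and their thermogenic programme depends on the coactivator PGC-1α, encoded by Ppargc1a.

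Each captured RNA molecule carried a unique molecular identifier (UMI), and the 12846 WT and 11495 KO barcodes held 93102814 and 80090208 UMIs in all, with a median of 3439.5 and 4363 per barcode. The libraries differed in the median share of mitochondrial UMIs, which was 0.773% in WT brown nuclei and 0.0450% in KO adipocyte nuclei, a difference whose part in the results was not tested, and they shared 52 barcodes. Adipocyte nuclei were called when 8 adipocyte markers made up at least 50 of every 10000 UMIs and no other cell type's markers reached 20, with at least 2000 UMIs in the nucleus. This gave 4858 adipocyte nuclei in WT and 2105 in KO. Of these, 109 WT and 434 KO nuclei were called white-like from Slc7a10 and Lep, 4551 WT nuclei were brown by 6 markers such as Ucp1 and Cidea, and the 1671 KO nuclei that were not white-like are called KO adipocyte nuclei below. Neither the 10 genes nor Ppargc1a entered any call. Among markers not used in the calls, Nnat was at 2448 UMIs per 1000000 (CPM) in WT white-like against 51.4 in WT brown nuclei, Retn at 211 against 7.24 and Npr3 at 574 against 114, while Hoxc8 had 0 UMIs in the WT white-like nuclei, which allows up to 3.00 CPM. In the KO library Nnat was at 262 CPM in white-like and 25.5 in the other adipocyte nuclei. The targeted gene, Srsf1, was at 179 CPM (175 to 183) in WT brown and 54.8 CPM (51.1 to 58.6) in KO adipocyte nuclei, and at 130 and 85.4 CPM in endothelial nuclei of the 2 libraries. Ppargc1a stood at 5081 CPM in WT brown, 403 in WT white-like, 533 in KO adipocyte and 255 in KO white-like nuclei.

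Droplets also captured free RNA, so the level of each gene in endothelial nuclei was set beside it. Plin1, the adipocyte lipid droplet protein that endothelial cells lack, reached 17.6% of its brown level in WT endothelial nuclei and 6.53% of its adipocyte level in KO ones. Other adipocyte genes had higher shares: Ucp1 36.2% in WT and 23.9% in KO, and Adipoq 63.2% and 20.6%. No single share therefore stands for free RNA. In WT, endothelial nuclei held 16.2% of the brown level of Acaca, 17.9% of Acacb, 14.9% of Elovl6, 27.8% of Acly and 31.7% of Me1. Elovl3 stood at 43.3%. For Fasn the share was 79.9%, for Scd1 136%, for Scd2 228% and for Elovl5 332%, so Scd1, Scd2 and Elovl5 were lower in WT brown than in WT endothelial nuclei. These 4 shares are far above that of Plin1, and the parts of free RNA and of expression by endothelial cells in them were not tested. Elovl5 was at 162 CPM in WT endothelial, 105 in WT mural and 65.2 in WT immune nuclei. WT immune nuclei held 54.8% of the brown level of Fasn and 81.3% of that of Scd1. In KO the shares were 11.8% for Acaca, 28.5% for Fasn, 40.7% for Scd2 and 76.7% for Scd1. The same share thus differed between genes and between libraries. Nuclei of other types also differed between the libraries: Elovl6 had a KO to WT log2 ratio of -1.67 in endothelial and -1.32 in immune nuclei, Me1 of 1.00 and 0.57, and Acaca of 0.45 and 0.66. With the endothelial level of its own library subtracted, the ratio of KO adipocyte to WT brown nuclei was -2.39 for Elovl6, 1.96 for Me1, 0.98 for Acaca and 0.29 for Acly.

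Comparing KO adipocyte nuclei with WT brown nuclei, Scd2 and Me1 were at least 2-fold higher and Elovl6 and Elovl3 at least 2-fold lower. That is 2 of 10 genes higher, beside 19.0% of the 15626 genes tested, and 2 of 10 lower, beside 17.0%, so both shares lay near their background. The 10 genes had a median log2 ratio of 0.21, and all genes tested 0.11. Of the enzymes that lead to palmitate, Acly, Me1, Acaca and Fasn had KO to WT ratios between 1.11-fold and 3.30-fold, although that of Acly turned below 1 in KO nuclei that met the brown rule. These are ratios of summed UMIs. The median over single nuclei was lower in KO for Acly, at 158 against 184 CPM, and Fasn, at 144 against 188. It was higher in KO for Me1 and Acaca. Counts of Acly and Fasn in a nucleus were sparse, so their medians also depend on depth. With each nucleus thinned to 1000 UMIs, Acly was found in 25.9% of KO adipocyte and 25.2% of WT brown nuclei. For Fasn the shares were 24.5% and 22.9%, and the intervals overlapped for both genes. The elongases Elovl3 and Elovl6 had ratios below 1 under every setting tried, whereas that of Elovl5 lay near 1.

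**Figure D1:**
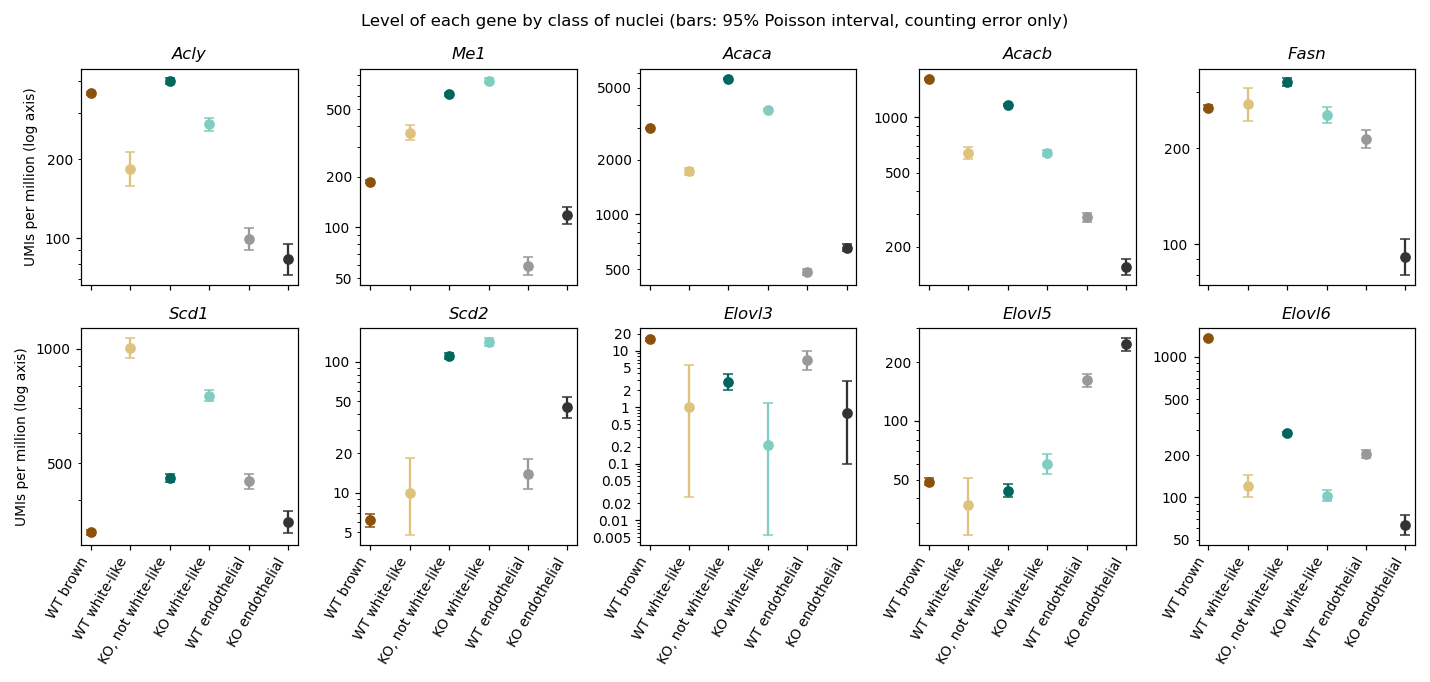
Level of each gene in 6 classes of nuclei, in UMIs per 1000000 on a log axis, with exact 95% Poisson intervals. Elovl6 stands at 1361 in WT brown nuclei and at 285 or less in the other 5 classes, Acaca is highest in KO adipocyte nuclei at 5577, and Elovl5 is highest in endothelial nuclei.

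The upstream sequences of 4 of these genes are shown because their patterns differed: Acly and Fasn varied together with Acaca over nuclei and against Ppargc1a, Me1 was higher in KO, and Elovl6 was lower in KO. RefSeq promoters (GRCm38.p6) were matched for 7 of the 10 genes, and the 211 bases from 250 to 40 before the annotated start are given, 5′ to 3′ on the gene's strand, for Me1 from the first of its 2 entries. They lie at chr11:100528040-100528250 on the minus strand for Acly, chr9:86695954-86696164 on the minus strand for Me1, chr11:120824587-120824797 on the minus strand for Fasn and chr3:129532136-129532346 on the plus strand for Elovl6. Capitals mark CCAAT, the NF-Y box, and GGGCGG, the GC box of Sp1, on either strand, so that they may read ATTGG or CCGCCC.
Acly: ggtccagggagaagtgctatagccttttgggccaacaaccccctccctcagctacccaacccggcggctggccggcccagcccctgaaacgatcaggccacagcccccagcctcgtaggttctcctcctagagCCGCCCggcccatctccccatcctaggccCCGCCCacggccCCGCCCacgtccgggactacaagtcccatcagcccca
Me1: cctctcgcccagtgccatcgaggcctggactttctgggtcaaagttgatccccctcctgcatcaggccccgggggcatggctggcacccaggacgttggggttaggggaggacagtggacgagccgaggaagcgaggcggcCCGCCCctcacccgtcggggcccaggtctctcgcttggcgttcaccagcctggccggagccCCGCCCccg
Fasn: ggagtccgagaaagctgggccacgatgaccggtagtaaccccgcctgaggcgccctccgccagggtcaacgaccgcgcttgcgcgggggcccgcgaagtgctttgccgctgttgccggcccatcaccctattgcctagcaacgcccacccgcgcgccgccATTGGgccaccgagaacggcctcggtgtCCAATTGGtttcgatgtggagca
Elovl6: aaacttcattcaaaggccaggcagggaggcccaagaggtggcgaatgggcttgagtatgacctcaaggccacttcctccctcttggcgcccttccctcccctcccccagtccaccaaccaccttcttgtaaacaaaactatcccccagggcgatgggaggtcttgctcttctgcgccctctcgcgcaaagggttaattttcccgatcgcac
Fasn held 3 matches to CCAAT, of which a forward and a reverse match overlap, Acly held 3 to GGGCGG, Me1 held 2, and Elovl6 held neither. Over all 32851 promoters, 30% held CCAAT and 26.9% held GGGCGG in the same window. The E-box CACGTG and the sterol element TCACNCCA, searched on both strands, were in none of these 4 windows and in 4.70% and 3.08% of all promoters. A match is a description of the letters and not of binding.

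The supply of substrate and reducing power falls to Acly and Me1. Acly, ATP citrate lyase, makes cytosolic acetyl-CoA and lies on chromosome 11 at 100476353 to 100528000 (GRCm38). Its level was 357 CPM (352 to 363) in WT brown, 184 (158 to 213) in WT white-like, 398 (388 to 408) in KO adipocyte and 272 (258 to 288) in KO white-like nuclei. The KO adipocyte level was 1.11-fold that of WT brown nuclei (log2 ratio 0.15), a small difference whose log2 ratio became -0.12 when the 125 KO nuclei that met the WT brown rule were used. Me1, the cytosolic malic enzyme that yields NADPH, lies on chromosome 9 at 86581371 to 86695953. It was at 186 CPM (182 to 190) in WT brown, 364 (328 to 404) in WT white-like, 613 (601 to 626) in KO adipocyte and 737 (712 to 762) in KO white-like nuclei. Me1 thus had its lowest adipocyte level in WT brown nuclei, with no 2 of the 4 intervals overlapping. Its KO to WT ratio was 3.30-fold (log2 ratio 1.72, 1.68 to 1.76), and 0.95 on the log2 scale in the KO nuclei that met the brown rule.

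Malonyl-CoA is made by 2 carboxylases, and their ratios pointed in opposite directions. Acaca, the cytosolic isoform that feeds synthesis, spans 272 kb of chromosome 11 at 84129672 to 84401651. It was at 2975 CPM (2960 to 2991) in WT brown, 1725 (1644 to 1808) in WT white-like, 5577 (5540 to 5615) in KO adipocyte and 3760 (3704 to 3816) in KO white-like nuclei. Both KO classes were above both WT classes in these summed levels. Over single nuclei the median was 2084 CPM in KO white-like, below 2534 in WT brown nuclei. The ratio of KO adipocyte to WT brown nuclei was 1.87-fold (log2 ratio 0.91, 0.89 to 0.92), short of 2-fold, and it passed 2-fold in 3 of 14 other ways of processing, which ranged from 0.77 to 1.17 on the log2 scale. Acacb, the isoform at the mitochondrial surface whose product restrains fatty acid import, lies on chromosome 5 at 114146535 to 114250761. It was at 1607 CPM (1595 to 1618) in WT brown, 1164 (1147 to 1182) in KO adipocyte, 639 (591 to 691) in WT white-like and 638 (615 to 662) in KO white-like nuclei. The white-like levels of the 2 libraries overlapped and were the lowest of the 4. The KO adipocyte level was 1.38-fold lower than that of WT brown nuclei (log2 ratio -0.46), and the log2 ratio was -0.09 in the KO nuclei that met the brown rule.

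Fasn, fatty acid synthase on chromosome 11 at 120805846 to 120824547, varied least over the 4 classes. It was at 267 CPM (263 to 272) in WT brown, 274 (243 to 309) in WT white-like, 321 (312 to 330) in KO adipocyte and 253 (239 to 268) in KO white-like nuclei. The first, second and last of these intervals overlapped with each other. The log2 ratio of KO adipocyte to WT brown nuclei was 0.26, but with the endothelial level of the same library subtracted it was 2.09, the only alternative past 2-fold. WT endothelial nuclei held 213 CPM of Fasn and KO endothelial nuclei 91.5.

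The desaturases introduce the first double bond into stearate and palmitate. Scd1 and Scd2 lie close together on chromosome 19, at 44394455 to 44407879 and 44293674 to 44306864, and how reads shared by these paralogs were assigned is not given in the sources used here. Scd1 was at 330 CPM (325 to 335) in WT brown, 458 (447 to 469) in KO adipocyte, 752 (727 to 778) in KO white-like and 1004 (943 to 1068) in WT white-like nuclei. The white-like nuclei held the highest levels in both libraries. Endothelial nuclei held 449 CPM in WT and 351 CPM in KO, both below the white-like level of the same library. In KO nuclei that met the brown rule the log2 ratio of Scd1 to WT brown nuclei was -0.01, against 0.47 in all KO adipocyte nuclei. Over single nuclei the median of Scd1 was lower in KO adipocyte nuclei, at 237 CPM, than in WT brown nuclei, at 277. At 1000 UMIs per nucleus, Scd1 was found in 29.9% of KO adipocyte and 28.5% of WT brown nuclei, with overlapping intervals. Scd2 was at 6.15 CPM (306 UMIs) in WT brown, 10.0 CPM (10 UMIs) in WT white-like, 111 CPM (1688 UMIs) in KO adipocyte and 142 CPM (652 UMIs) in KO white-like nuclei. The KO to WT ratio of Scd2 was 18.0-fold in adipocyte nuclei (log2 ratio 4.17, 4.0 to 4.35), the largest of the 10 ratios. A Scd2 UMI was found in 5.36% of WT brown nuclei (4.72 to 6.06) and in 44.5% of KO adipocyte nuclei (42.1 to 46.9). In endothelial nuclei the shares were 3.44% in WT and 8.66% in KO, at median depths of 2293 and 2150 UMIs against 7427 and 6674 in the adipocyte classes. With each nucleus thinned to 1000 UMIs, Scd2 was found in 0.615% of WT brown and 10.8% of KO adipocyte nuclei, against 1.37% of WT and 3.21% of KO endothelial nuclei. Scd2 was also higher in KO in endothelial and immune nuclei, with log2 ratios of 1.68 and 1.24.

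The elongases differed widely among themselves. Elovl6, which lengthens palmitate to stearate, lies on chromosome 3 at 129532355 to 129638495. It was at 1361 CPM (1351 to 1371) in WT brown, 285 (276 to 293) in KO adipocyte, 121 (100 to 145) in WT white-like and 103 (93.8 to 113) in KO white-like nuclei. The brown level was 4.78-fold that of KO adipocyte nuclei (log2 ratio -2.26, -2.30 to -2.21) and 11.2-fold that of WT white-like nuclei, and the white-like levels of the 2 libraries overlapped. Endothelial nuclei held 203 CPM in WT, above the WT white-like level, and 63.7 CPM (54.1 to 74.4) in KO, below the KO white-like level. Elovl3, an elongase of brown fat that is induced by cold, lies on chromosome 19 at 46131897 to 46135694. It was at 15.9 CPM (793 UMIs) in WT brown and 2.83 CPM (43 UMIs) in KO adipocyte nuclei, a log2 ratio of -2.50 (-2.97 to -2.05). The white-like nuclei held 1 UMI of Elovl3 in each library. Elovl5, which acts on polyunsaturated fatty acids, lies on chromosome 9 at 77917364 to 77984519. It was at 48.8 CPM (46.9 to 50.8) in WT brown and 43.7 (40.5 to 47.2) in KO adipocyte nuclei, and below the endothelial level in every adipocyte class. Its log2 ratio was -0.16, and 0.0044 in the KO nuclei that met the brown rule. Across all 14 other ways of processing, Elovl6 stayed between -2.39 and -1.38 and Elovl3 between -3.31 and -1.77 on the log2 scale. Genes on the opposite strand overlap Elovl6 (Gm35986), Me1 (A330041J22Rik), Acaca (Gm11437) and Elovl3 (Pitx3), and whether strand was used in counting is not given in the sources used here.

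**Figure D2:**
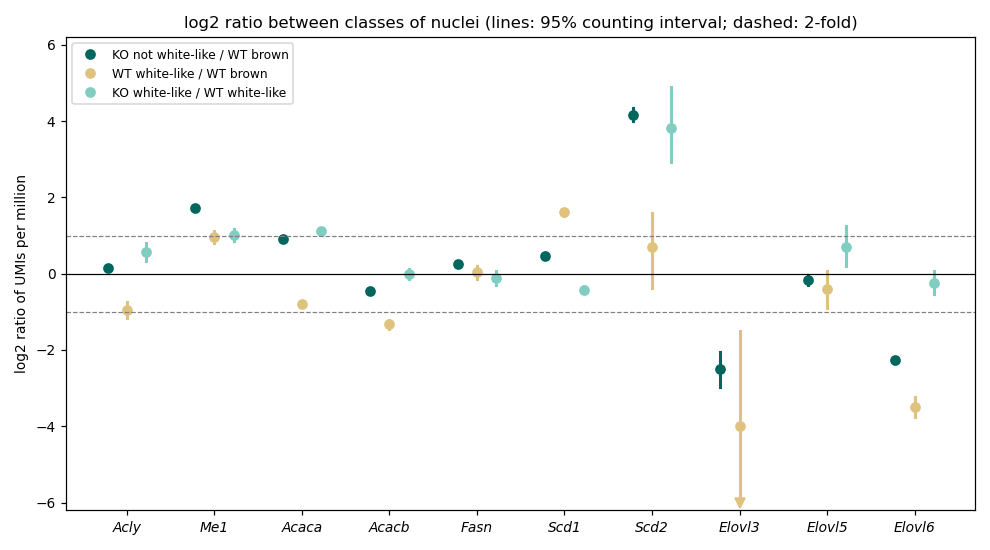
Log2 ratio of UMIs per 1000000 for each gene in 3 comparisons of classes, with 95% counting intervals as lines and 2-fold as dashed lines. Scd2 lies at 4.17 and 3.82 in the 2 KO to WT comparisons, Elovl6 at -2.26 and -3.49 against WT brown nuclei, and the arrow marks an interval that runs past the axis for Elovl3, which rests on 1 UMI.

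White-like and brown nuclei of the same WT library give a comparison within 1 library. Scd1 was 3.04-fold higher in the white-like nuclei (log2 ratio 1.61), so 1 of 10 genes was at least 2-fold higher, beside 15.1% of 14702 genes. Elovl6, Elovl3 and Acacb were at least 2-fold lower, 3 of 10 genes beside 13.8%. Their log2 ratios were -3.49 (-3.76 to -3.23) for Elovl6, -1.33 (-1.44 to -1.22) for Acacb and -3.99 (-9.30 to -1.51) for Elovl3, the last with 1 UMI against 793. Acly and Acaca were also lower, by 1.94-fold and 1.73-fold, Me1 was 1.96-fold higher, and the intervals of Fasn, Scd2 and Elovl5 included no difference. This comparison and that of KO adipocyte nuclei share the WT brown nuclei, so their ratios are only set side by side: Elovl6 had log2 ratios of -3.49 here and -2.26 there, Me1 of 0.97 and 1.72, and Acaca of -0.79 and 0.91.

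White-like nuclei of the 2 libraries were then compared with each other. Among markers not used in the calls, Nnat was at 262 CPM in KO against 2448 in WT, Retn at 78.9 against 211 and Npr3 at 1144 against 574. Srsf1 was at 87.0 CPM (78.6 to 95.9) in KO and 148 (125 to 174) in WT white-like nuclei. KO endothelial nuclei held 85.4 CPM of Srsf1. Whether the 2 classes hold the same kind of cell was not tested. Scd2 was 14.2-fold higher in KO (log2 ratio 3.82, 2.94 to 4.89), Acaca 2.18-fold (1.12, 1.05 to 1.20) and Me1 2.02-fold (1.02, 0.86 to 1.18). That is 3 of the 9 genes that reached 50 UMIs, beside 14.3% of 9083 genes, and 0 of 9 were at least 2-fold lower, beside 8.05%. Me1 and Acaca were close to 2-fold. The count was 1 when ratios were centred on the median of all genes, a setting at which the share of all genes was not counted. The ratios of Acacb, Fasn and Elovl6 had intervals that included no difference. Within the KO library, Elovl6 was 2.77-fold lower in white-like than in the other adipocyte nuclei, the 1 gene of 9 past 2-fold lower, beside 4.60% of 12708 genes, and 0 of 9 were past 2-fold higher, beside 3.03%.

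Values of single nuclei showed that the KO classes were not shifted evenly. Acaca had a median of 2534 CPM and a 90th percentile of 6027 CPM over WT brown nuclei, and a median of 3551 and a 90th percentile of 15656 over KO adipocyte nuclei. The 10th percentiles, 758 and 877 CPM, were much closer, so the KO distribution of Acaca reached further upward. Over KO white-like nuclei the median of Acaca was 2084 CPM and the 90th percentile 10519, and 41.7% were above the WT brown median. Elovl6 had a median of 1261 CPM in WT brown and 124 in KO adipocyte nuclei, of which 6.64% were above the WT brown median. No WT white-like nucleus was above it. Me1 was above its WT brown median in 76.7% of KO adipocyte, 82.7% of KO white-like and 70.6% of WT white-like nuclei. Acacb was above its WT brown median in 32.5% of KO adipocyte nuclei, and in 10.1% and 9.91% of the WT and KO white-like nuclei.

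**Figure D3:**
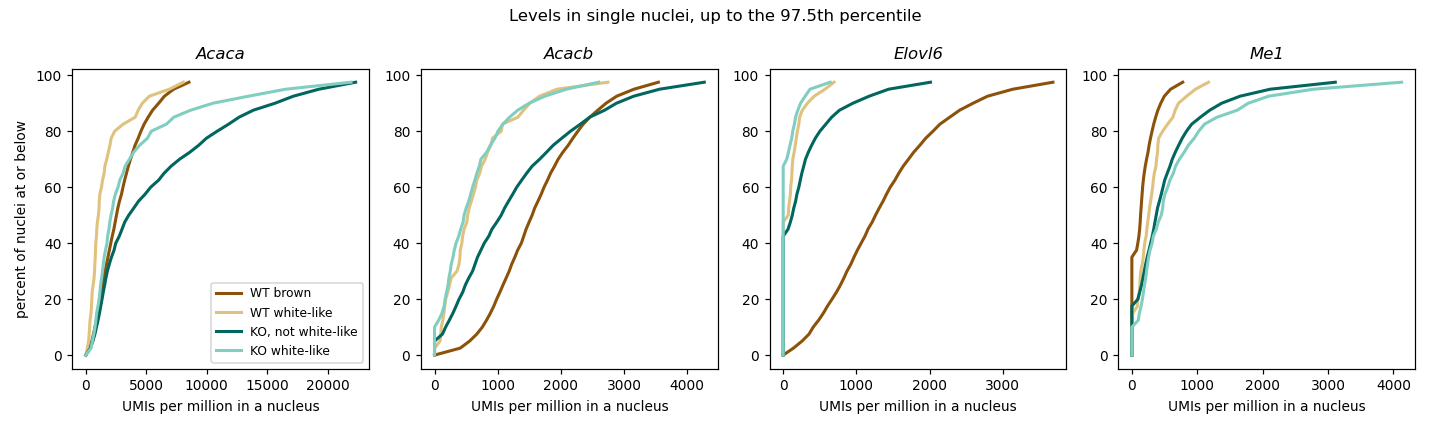
Cumulative share of nuclei, in percent, against the level in a nucleus, in UMIs per 1000000, for 4 genes and 4 classes of adipocyte nuclei. For Acaca the KO adipocyte curve leaves the WT brown curve in the upper range, for Elovl6 the WT brown curve lies to the right of the others with a median of 1261, and the white-like curves of Acacb lie over each other.

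Within WT brown nuclei, the relation of each gene to Ppargc1a was described over 4337 nuclei of the 1 library, thinned to 3000 UMIs each, and 214 shallower nuclei were left out. Acaca had a Pearson correlation of -0.38 with Ppargc1a on the log scale, Acly -0.26, Fasn -0.21, Acacb -0.11 and Scd1 -0.08. Among 6365 genes with at least 1000 UMIs in these nuclei the median correlation was -0.01, the middle 90% lay between -0.07 and 0.07, and only 1 gene was lower than Acaca and 4 were lower than Acly. Elovl6 had a correlation of 0.07, above that of 95.5% of these genes. Me1, Scd2, Elovl3 and Elovl5 lay between -0.06 and -0.02, inside the middle range, with Scd2 and Elovl3 at only 306 and 793 UMIs. The UMIs of all 10 genes summed had a correlation of -0.32, and of 0.30 without thinning, where both counts carry the depth of the nucleus. Counts were sparse for most of these genes: a nucleus of 3000 UMIs had a mean of 9.13 UMIs of Acaca but only 1.08 of Acly and 0.05 of Elovl3. The mice behind the library cannot be told apart, so nuclei of different mice may differ in these levels.

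**Figure D4:**
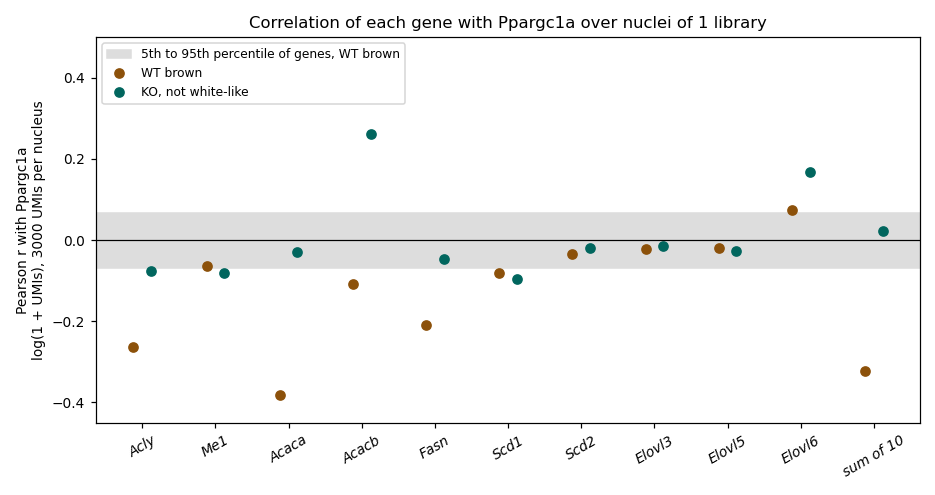
Pearson correlation of each gene, and of the 10 summed, with Ppargc1a over nuclei thinned to 3000 UMIs, in WT brown and in KO adipocyte nuclei. The grey band is the middle 90% of 6365 genes in WT brown nuclei. Acaca, Acly and Fasn lie far below it in WT and Acacb and Scd1 just below it. In KO Acacb is at 0.26 and Elovl6 at 0.17, and no such band was computed for KO nuclei.

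Genes that varied most like the 10 summed genes over WT brown nuclei were sought among 6358 others. The highest correlations were 0.33 for Pik3r1, a regulatory subunit of phosphoinositide 3-kinase, 0.28 for Adipor2, an adiponectin receptor, 0.26 for Pnpla3, 0.26 for Ppp1r3b, a glycogen-targeting subunit of protein phosphatase 1, and 0.26 for Rgs7. The lowest were -0.37 for Ppara, the receptor that drives fatty acid oxidation genes, -0.32 for Ppargc1a, -0.31 for Irs2, an insulin receptor substrate, -0.29 for Zbtb16 and -0.24 for Ugp2. Among these, Pik3r1 had the lowest correlation with Ppargc1a of all 6365 genes, -0.38, and Irs2 the highest, 0.47.

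Acly, Acaca and Fasn also varied with each other. In WT brown nuclei the correlation was 0.43 for Acly and Acaca, 0.34 for Acaca and Fasn and 0.29 for Acly and Fasn, the 3 highest of the pairs. In 1534 KO adipocyte nuclei thinned in the same way they were 0.58, 0.59 and 0.53, and in 419 KO white-like nuclei 0.58, 0.52 and 0.52. Me1 had correlations of 0.34 with Acaca and 0.33 with Acly in KO adipocyte nuclei. Against Ppargc1a, which was at 0 in 47.8% of the thinned KO adipocyte nuclei, Acaca had a correlation of -0.03, Acly -0.08, Elovl6 0.17 and Acacb 0.26. The WT and KO values rest on unequal counts of Ppargc1a, a mean of 16.3 and 1.77 UMIs per thinned nucleus, and their difference was not tested.

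Around the 10 enzymes, 40 further genes of the pathway were listed, of which 36 reached the minimum. In KO adipocyte against WT brown nuclei 7 were at least 2-fold higher and 5 at least 2-fold lower, beside 19.0% and 17.0% of all genes tested, with a median log2 ratio of 0.14 beside 0.11 over all genes. Both shares of the list lay near those of all genes. The desaturases had 4 of 4 tested genes higher, beside the same 19.0%: Fads3 at 94.9 against 5.07 CPM, Fads2 at 12.8 against 3.28, Fads1 at 5.72 against 1.57, and Scd3, next to Scd2, at 8.75 against 0.322 CPM. Fads1 and Fads2 encode the desaturases of polyunsaturated fatty acids. Fads3 was also high in WT white-like nuclei, at 143 CPM, whereas Scd3 had 0 UMIs there, with an upper 95% limit of 3.69 CPM. Pgd, an NADPH-producing enzyme, had a log2 ratio of 1.15 and Mid1ip1, which promotes carboxylase polymerization, of 1.31. Lower were Thrsp, a lipogenic regulator, at 92.6 against 219 CPM, Hacd2, the dehydratase of the elongation cycle, at 512 against 1671 CPM, and Mecr of mitochondrial fatty acid synthesis at 61.9 against 188 CPM. Elovl1, an elongase of saturated chains, was also higher, with a log2 ratio of 1.10. Among 11 regulators 0 were at least 2-fold higher and 2 lower, beside 19.0% and 17.0% of all genes, namely Insig1 and Nr1h2, the latter at 10.5 against 21.5 CPM. Elovl1 and Nr1h2 were named after their values were seen, and which other genes of this list are named was not fixed beforehand. The other regulators included Srebf1 at 88.4 against 45.6 CPM (log2 ratio 0.96) and Mlxipl, which encodes ChREBP, at 869 against 830 CPM. Insig1, which holds SREBP in the endoplasmic reticulum, was at 29.0 against 58.7 CPM. Thrsp was at 541 CPM in WT white-like and 180 CPM in KO white-like nuclei, and Hacd2 at 1976 and 592 CPM, so both were also lower in KO between the white-like nuclei.

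Of 15 genes of fatty acid oxidation, 1 was at least 2-fold higher and 5 lower in KO adipocyte nuclei, beside 19.0% and 17.0% of all genes tested. Their median log2 ratio was -0.77, beside 0.11 over all genes, and 13 of 15 were below 0, beside 7083 of 15626. The higher gene was Cpt1a, the liver form of carnitine palmitoyltransferase, at 49.5 against 10.2 CPM. The lower ones were Acadvl, Eci1, Ppara, Etfdh and Acaa2, with log2 ratios from -1.66 to -1.14, all 6 named after their values were seen. Of 11 genes of lipolysis and triglyceride synthesis, 0 were higher and 1, G0s2, likewise named after its value was seen, was lower, beside the same 19.0% and 17.0%, with a median of -0.16.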

How the data were processed

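Nuclei of interscapular BAT of WT and KO mice were profiled with the 10x Genomics 3′ v3.1 kit, 1 library per genotype. The authors aligned reads to GRCm38 with STAR and deposited UMI counts for each gene in each barcode, not normalized. The file headers and the submitters' processing notes name Cell Ranger 5.0.0, the notes also Seurat 3.1.1, and the methods another Cell Ranger release. Whether intronic reads were counted is not given in the sources used here.

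Depth per library and class is given with the results. Nuclei were kept with at least 200 genes, at most 10% mitochondrial UMIs and a log depth and log gene number no farther than 3 median absolute deviations from the library's median, which left 12771 WT and 11378 KO nuclei. Classes followed marker sums whose thresholds were set after the data had been seen: white-like nuclei had at least 2 UMIs of Slc7a10 and Lep, at least 3 per 10000 UMIs of both, and under 25 per 10000 of 6 brown markers, and WT brown nuclei had at least 25 and under 3 of these. Within 10 units of the adipocyte threshold of 50 lay 64 WT nuclei above and 32 below, and 236 and 171 in KO. No class was given to 42.6% of WT and 32.8% of KO nuclei, and 198 WT adipocyte nuclei were neither brown nor white-like. No doublet caller was run, and nuclei with 20 or more per 10000 UMIs of another type's markers were left out of the adipocytes.

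UMIs were summed per class and scaled to 1000000 (CPM). Intervals are exact Poisson for levels, conditional binomial for ratios and exact binomial for shares. A gene needed 50 UMIs over both classes, and a call was a 2-fold difference. A class at 0 was set to 3 counts. All 10 genes are named, and the 5 genes with the highest and the 5 with the lowest correlation. For the wider list the plan allowed values for at most 12 genes but did not fix which. All genes of that list past 2-fold in KO adipocyte against WT brown nuclei are named, so the choice was not blind to the values. Elovl1 and Nr1h2 were added beyond the 12 after their values were seen. The genes and lists were chosen with earlier results of these data known. Alternatives were other nuclei filters, thresholds, scalings, minimums and thinning depths, with subtraction of the endothelial level. Gene positions came from GENCODE M21. The steps were tested on simulated data. Python 3.11.15, numpy 2.4.6, scipy 1.17.1, pandas 2.3.3 and matplotlib 3.10.9 were used.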

Additional observations from a re-analysis of the deposited data

Results flagged for a closer look

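Genes whose KO to WT ratio pointed in opposite directions in the adipocyte nuclei that were not white-like and in the white-like nuclei, with both intervals on their own side of 0, were Scd1 and Elovl5. Scd1 had a log2 ratio of 0.47 (0.43 to 0.51) in KO adipocyte against WT brown nuclei and of -0.42 (-0.52 to -0.31) between the white-like nuclei. Elovl5 had log2 ratios of -0.16 (-0.28 to -0.03) and 0.71 (0.21 to 1.24). In KO nuclei that met the brown rule the ratios to WT brown nuclei were -0.01 for Scd1 and 0.0044 for Elovl5, on the other side of 0. These differences were not tested, since each class comes from 1 library per genotype. Opposite directions were sought only among the enzymes of synthesis and elongation followed here. The share of all genes with such opposite directions was not counted, so whether Scd1 and Elovl5 stand out in this is not known. WT endothelial nuclei held 449 CPM of Scd1 and 162 CPM of Elovl5, and the KO ones 351 and 247 CPM.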

How the results depend on the processing

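No paired analysis was possible because there was 1 library per genotype, and no library could be left out. In KO adipocyte against WT brown nuclei the directions of Scd2, Elovl3, Elovl6 and Me1 held in every alternative that gave a value, and Me1 fell short of 2-fold in 1 of 14. The cause of each change below was not tested except where the setting itself sets it. The share of all genes past 2-fold was not counted at these other settings, so the counts below have no background beside them. KO nuclei that met the brown rule, added after the data were seen, gave 1 gene of the 10 higher in place of 2 and 3 of the wider list in place of 7. Genes of the wider list at least 2-fold lower numbered 3 rather than 5 without a filter on nuclei and with the marker sums doubled. In WT white-like against WT brown nuclei, 2 genes rather than 1 were higher without a filter, with fixed limits, with the mean over nuclei, after centring on the median ratio and without the top 10% of nuclei by UMIs, and 5 rather than 3 were lower with the marker sums doubled. Between the white-like nuclei, 1 rather than 3 genes were higher after centring, and 1 rather than 0 lower with the marker sums doubled and with a minimum of 1 UMI, the latter being Elovl3 with 1 UMI in each class. Without thinning the correlations with Ppargc1a turned positive, to 0.30 for the summed genes, 0.081 for Acly, 0.13 for Acaca, 0.39 for Acacb, 0.12 for Fasn and 0.23 for Scd1, since counts of any 2 genes then rise with the depth of a nucleus. Of the values for single genes, 336 were labelled the same, 145 moved and 5 reversed, namely the single-gene correlations just given. Ratios between classes and shares of nuclei counted as the same inside the counting interval of the main value. Correlations, and ratios between groups ordered by Ppargc1a, counted as the same when they had the same sign and a similar size. The directions of Acly, Scd1 and Elovl5 in KO adipocyte against WT brown nuclei also turned with KO nuclei that met the brown rule, to -0.12, -0.01 and 0.0044. Depth limits Elovl3 and Scd2 most, with 1 and 10 UMIs in WT white-like nuclei.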

Other observations

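Outside adipocytes, Elovl5 had its highest levels in endothelial nuclei, at 247 CPM (228 to 268) in KO and 162 CPM (150 to 175) in WT, followed by mural nuclei at 108 and 105 CPM, whose intervals overlapped. Acaca was at 680 CPM in KO immune and 431 CPM in WT immune nuclei. The 198 WT adipocyte nuclei that were neither brown nor white-like held 830 CPM of Elovl6 (790 to 871) and 602 CPM of Scd1 (568 to 637). They held 303 CPM of Me1 (279 to 328) and 1226 CPM of Acacb (1177 to 1275). Each of these levels lay between the brown and the white-like level, as did those of Acly, Acaca and Elovl3. Fasn at 298 CPM, Scd2 at 12.1 and Elovl5 at 58.0 lay above both, with intervals that overlapped the white-like ones. These nuclei are what the brown and white-like calls left over, and no doublet caller was run. The 125 KO nuclei that met the brown rule held 525 CPM of Elovl6 (477 to 575), 72.3 CPM of Scd2 (55.4 to 92.7) and 893 CPM of Ppargc1a (831 to 958).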
